A study of Sus scrofa with 26 samples.

Results

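The 10 genes described here encode the transcription factors that drive the formation of fat cells and the synthesis of lipid in them, and their RNA was measured in the subcutaneous adipose tissue (SCAT) of 26 castrated male pigs with 1 one-colour microarray per pig. They are PPARG, CEBPA, CEBPB, CEBPD, SREBF1, SREBF2, MLXIPL, NR1H3, KLF15 and RXRA, taken as a fixed list and matched to the array by gene symbol, gene accession or probe description. All 10 were found, on 32 of the 60305 probes of the array, and 30 of the 32 probes were tested among 44703 in all. The pigs were Creole, Large White (LW) or their F1 cross, and were sampled at thermoneutrality (TN, 24 °C in the labels) or under heat stress (HS, 30 °C in the labels). There were 3 Creole TN, 5 Creole HS, 4 F1 TN, 5 F1 HS, 4 LW TN and 5 LW HS pigs, which gives 11 TN and 15 HS arrays. The study's own text gives a heat temperature slightly above that of the labels, held for several days with free access to feed. It also reports that the pigs ate less under heat. TN pigs were slaughtered before the temperature was raised, so temperature, feed intake, slaughter day and age cannot be told apart. Littermates were spread over the groups without being named in the labels. The samples are pieces of back fat holding several cell types, so fewer cells of a type and less RNA per cell cannot be told apart.

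A fat cell forms when the early factors CEBPB and CEBPD switch on PPARG and CEBPA, which then maintain each other and the genes of the mature adipocyte. PPARG and the oxysterol sensor NR1H3 (LXR alpha) bind DNA as pairs with RXRA. In the mature cell, SREBF1 (which encodes SREBP-1) and the glucose-responsive MLXIPL (ChREBP) raise the enzymes of fatty acid synthesis, SREBF2 raises those of cholesterol synthesis, and KLF15 is a factor induced by glucocorticoids. The activity of these proteins is set largely after transcription, by ligands, by cleavage of a membrane-bound precursor for the SREBF products and by glucose metabolites for MLXIPL, and an array measures the RNA alone.

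Each probe is an oligonucleotide of 60 bases, and several genes are read by probes with different sequences. The probes that carry the results below are shown by 30 of their 60 bases, 5′ to 3′, as the scanner files give them. Capitals mark the bases within a run of at least 12 that another probe of the same gene also holds.
CEBPA A_72_P412888, first 30 bases: gttctcttctttgggggagaacgtagagtt
CEBPA A_72_P344038, first 30 bases: tctagtattaaaggaataaccctgtgcctt
CEBPA A_72_P399728, first 30 bases: TCAACGACGAGTTcctggccgacctgtttc
CEBPA O15014, last 30 bases: catcgacccggccgcctTCAACGACGAGTT
RXRA A_72_P444634, first 30 bases: tgagatgtgctgccaccctgttaccttcca
RXRA O15026, first 30 bases: tttcaccaaaggcggggtccttacgcacct
NR1H3 A_72_P443928, first 30 bases: TCCTGAGGGCTGGGCAAAGGACATCCTCAC
NR1H3 O15022, first 30 bases: agacatTCCTGAGGGCTGGGCAAAGGACAT
NR1H3 A_72_P228412, first 30 bases: catttcctcgaaatggactccattaccatg
MLXIPL A_72_P443011, first 30 bases: tgtatacccgagcaagccacacgggcagtc
KLF15 A_72_P152306 and O5705, first 30 bases of both: GAGCTAGATAGAGCCTCCAATCCTGATTTA

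The 2 KLF15 probes are the same oligonucleotide in all 60 bases, and they followed each other at r = 0.99 over the 26 arrays once group means were removed. Their difference had an SD of 0.07 on the log2 scale, which is the repeat error of one sequence spotted under different names. Across the 39 pairs of tested probes of one gene, the 8 pairs sharing a run of 29 bases or more had r between 0.91 and 0.99. The 31 pairs sharing 13 bases or fewer ranged from -0.04 to 0.95, with a median of 0.71. The CEBPA probes A_72_P399728 and O15014 overlap by 13 bases and reached r = 0.93. The 2 SREBF2 probes share no more than 4 bases in a row and had r = 0.08, the RXRA probes had r = 0.38, and NR1H3 A_72_P228412 had r = -0.04 with the brightest NR1H3 probe. For SREBF2, RXRA and NR1H3 a value therefore belongs to its probe. CEBPA A_72_P344038 was matched to the gene by its accession, while its description column names an unrelated bacterial protein. The brightest probes of SREBF1 (O13456) and SREBF2 (O8965) carry the gene symbol but no list of pig accessions. Both RXRA probes were matched by gene symbol, with mean log2 levels of 7.28 (A_72_P444634) and 7.20 (O15026).

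A gene is represented below by its brightest tested probe, and a level is the log2 of the quantile-normalized median intensity. Levels of different probes cannot be compared with each other. All 10 representative probes were well above background on all 26 arrays. One CEBPD probe (A_72_P295134) and one SREBF1 probe (A_72_P057591) were well above background on 0 arrays and were not tested, and CEBPD O10651 was well above background on 13. Over the arrays, 68.51 to 76.58% of spots were well above background, no spot was saturated, and arrays of one group correlated at 0.974 to 0.993. The adipocyte marker score, the mean of 6 genes, ran from -0.22 to 0.32 at TN and from -0.29 to 0.50 under HS (difference 0.02 on the log2 scale, permutation p = 0.807).

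None of the 10 factors passed the test between TN and HS. A model with breed and temperature (limma, Benjamini-Hochberg over all tested probes) called 0 of the 10 genes and 0 of their 30 probes, where it called 12.2% of all tested probes and 12.6% of the representative probes of named genes. At an unadjusted p under 0.05 the count was also 0 of 10 genes, and 3 of 30 probes (2 of CEBPA and 1 of NR1H3). The share of all tested probes at that unadjusted threshold is not set beside this count or the unadjusted counts below. Adjusted p ran from 0.0573 to 0.955 over the 30 probes. The median difference HS minus TN was -0.07 for the 10 genes and 0.00 for all probes, and the median absolute difference was 0.15 for the 10 genes and 0.09 for all probes. The factors thus lay no closer to 0 than the array as a whole.

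**Figure D1:**
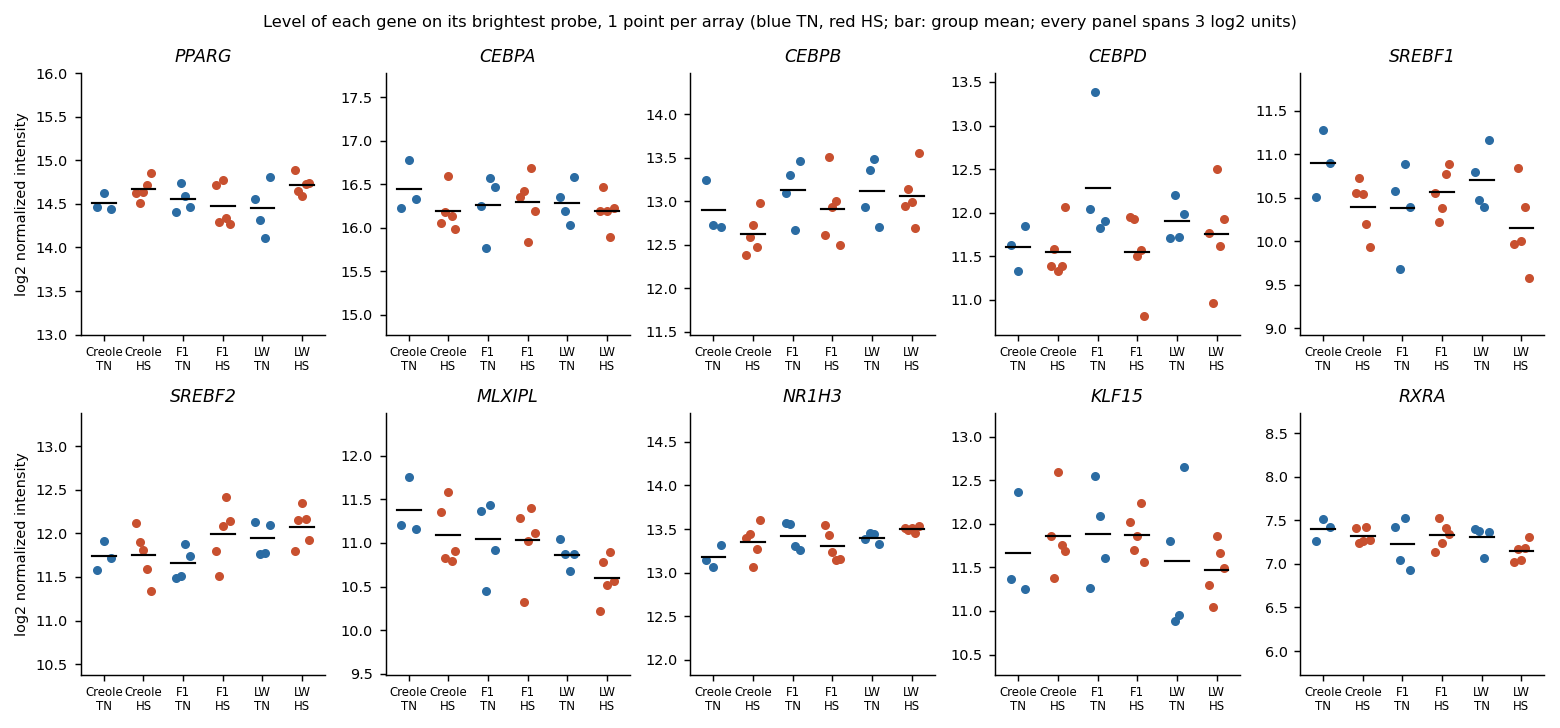
Level of each of the 10 genes on its brightest probe (vertical axis, log2 normalized intensity, 3 log2 units in every panel) in the 6 groups (horizontal axis), with 1 point per array, blue for TN, red for HS, and a bar at the group mean. HS and TN arrays overlap for all 10 genes, PPARG lies within 14.11 to 14.89, and 1 F1 TN array stands at 13.39 for CEBPD.

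Among the early factors, CEBPD had the difference farthest from 0. Its level in Creole was 11.63, 11.33 and 11.85 at TN and 11.39, 11.58, 11.33, 11.39 and 12.07 under HS. In F1 it was 12.04, 13.39, 11.82 and 11.90 at TN and 11.95, 11.93, 11.50, 11.57 and 10.81 under HS. In LW it was 11.71, 12.20, 11.72 and 11.98 at TN and 10.96 to 12.5 with a median of 11.77 under HS. The HS and TN arrays overlapped in each breed, and the F1 TN array at 13.39 lay above every other array. The difference HS minus TN was -0.32 (95% interval -0.69 to 0.04, limma adjusted p = 0.249), and 12 of 15 HS arrays lay below the TN mean of their breed. Its dimmer probe O10651 gave -0.09 (limma adjusted p = 0.58). With 1 array left out in turn the difference of the brightest probe ran from -0.39 to -0.18. CEBPB was 12.67 to 13.48 at TN (median 13.10) and 12.38 to 13.56 under HS (median 12.93). Its difference was -0.18 (-0.43 to 0.07, limma adjusted p = 0.365), with 11 of 15 HS arrays below the TN mean of their breed, and its 4 other probes were also negative, from -0.24 to -0.04.

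The master regulators PPARG and CEBPA also missed the threshold. PPARG, the nuclear receptor without which fat cells do not form, read 14.46, 14.63 and 14.44 in Creole TN and 14.63, 14.51, 14.64, 14.72 and 14.86 in Creole HS. In F1 it read 14.41, 14.74, 14.59 and 14.47 at TN and 14.72, 14.29, 14.77, 14.34 and 14.27 under HS. In LW it read 14.56, 14.31, 14.11 and 14.81 at TN and 14.89, 14.65, 14.59, 14.73 and 14.74 under HS. The groups overlapped in every breed, and 11 of 15 HS arrays lay above the TN mean of their breed. The difference was 0.12 (-0.04 to 0.27, limma adjusted p = 0.341), its 3 other probes gave 0.03 to 0.12, and within each of the 5 slides the HS mean was above the TN mean, by 0.08 to 0.20. Scaling each array to its 75th percentile in place of quantile normalization turned the PPARG difference to -0.0064. CEBPA was 15.77 to 16.78 at TN (median 16.33) and 15.84 to 16.69 under HS (median 16.19), a difference of -0.10 (-0.30 to 0.11, limma adjusted p = 0.586). Its 3 dimmer probes gave -0.29 (A_72_P344038, limma adjusted p = 0.0822), -0.25 (A_72_P399728, limma adjusted p = 0.127) and -0.21 (O15014, limma adjusted p = 0.20), so all 4 CEBPA probes were negative and none passed the threshold. With 1 array left out, A_72_P344038 passed in 3 of 26 fits and A_72_P399728 in 1 of 26, and A_72_P344038 also passed in 2 of 12 other settings.

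RXRA, the shared partner, read 6.93 to 7.53 at TN and 7.02 to 7.53 under HS, with a difference of -0.05 (-0.18 to 0.09, limma adjusted p = 0.713). Its other probe, O15026, gave 0.06 (limma adjusted p = 0.647).

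SREBF1, the activator of fatty acid synthesis, stood at a lower mean under HS in Creole and LW and at a higher one in F1. In Creole it read 10.51, 11.28 and 10.90 at TN and 10.55, 10.73, 10.54, 10.20 and 9.94 under HS. In F1 it read 10.58, 9.68, 10.89 and 10.40 at TN and 10.56, 10.22, 10.38, 10.77 and 10.89 under HS. In LW it read 10.80, 10.47, 10.40 and 11.16 at TN and 9.97, 10.84, 10.40 and 9.58 in 4 arrays under HS, with the fifth between 9.97 and 10.40. The groups overlapped in each breed. Over all breeds the difference was -0.28 (-0.60 to 0.04, limma adjusted p = 0.256), with 11 of 15 HS arrays below the TN mean of their breed. Its other tested probes gave -0.13 (A_72_P223967) and -0.07 (A_72_P326973).

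MLXIPL is read by a single probe, A_72_P443011. It was 10.45 to 11.76 at TN (median 11.05) and 10.22 to 11.58 under HS (median 10.90), a difference of -0.19 (-0.45 to 0.08, limma adjusted p = 0.371). SREBF2 was 11.49 to 12.13 at TN (median 11.76) and 11.34 to 12.42 under HS (median 11.92), a difference of 0.17 (-0.03 to 0.37, limma adjusted p = 0.257), with 10 of 15 HS arrays above the TN mean of their breed. The second SREBF2 probe, A_72_P255532, gave 0.01 (limma adjusted p = 0.926).

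NR1H3 varied little in LW, where its SD was 0.06 at TN (n = 4) and 0.03 under HS (n = 5). Over all breeds its brightest probe was 13.07 to 13.57 at TN and 13.06 to 13.60 under HS, and the difference was 0.04 (-0.08 to 0.17, limma adjusted p = 0.683). Probe A_72_P228412, which did not follow the other 4 probes, came nearest to the threshold of all 30. It read 9.73, 10.32 and 10.41 in Creole TN, 10.43, 10.29, 10.40 and 9.98 in F1 TN, and 10.20, 10.28, 9.98 and 10.30 in LW TN. Under HS it read 9.82 to 10.23 in Creole, 9.86 to 10.22 in F1 and 9.66 to 10.07 in LW. Its difference was -0.22 (-0.37 to -0.06, limma adjusted p = 0.0573), and 14 of 15 HS arrays lay below the TN mean of their breed. It passed the threshold in 2 of 12 other settings and in 5 of 26 fits with 1 array left out.

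KLF15 spread widely between pigs, from 10.89 to 12.65 at TN (SD 0.63, n = 11) and from 11.05 to 12.59 under HS (SD 0.38, n = 15). Its difference was 0.02 (-0.36 to 0.40, limma adjusted p = 0.955), and the identical second probe gave 0.03. That interval is the widest of the 10.

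**Figure D2:**
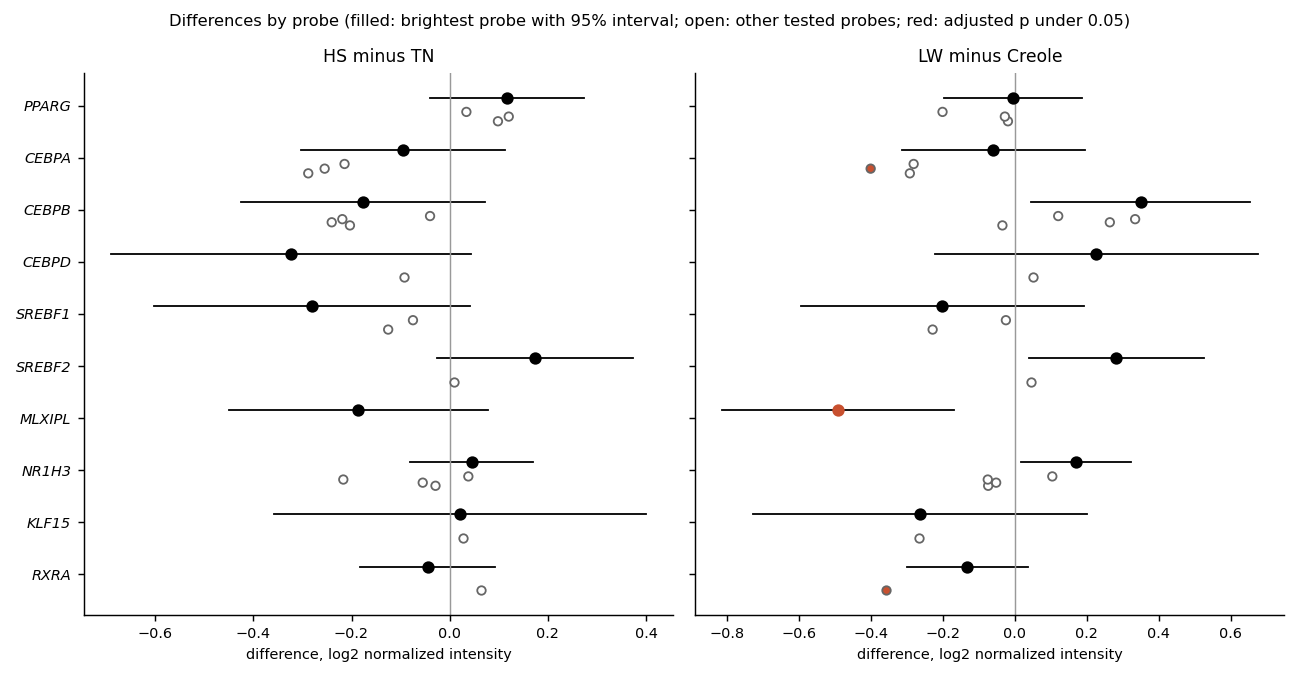
Differences HS minus TN (left) and LW minus Creole (right) for the 10 genes (horizontal axis, log2 normalized intensity), with the brightest probe as a filled point and its 95% interval, the other tested probes as small points below it, and red for an adjusted p under 0.05. No probe is red on the left, and MLXIPL, 1 CEBPA probe and 1 RXRA probe are red on the right.

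Taken breed by breed, 0 of 10 genes were called in Creole (0.0716% of probes called), in F1 (0.421%) or in LW (1.5%). At an unadjusted p under 0.05, limma gave 0 genes in Creole, 2 in F1 and 2 in LW on the brightest probes. Over all 30 probes it gave 2 in Creole (both of CEBPA), 4 in F1, 4 in LW and, for the interaction, 2. Without the share of all probes at the unadjusted threshold, these counts cannot be called more than background. On the brightest probes those in F1 were CEBPD at -0.73 (SE 0.29, adjusted p = 0.220), and SREBF2 at 0.34 (SE 0.16, adjusted p = 0.313). Without the array at 13.39 the CEBPD difference in F1 was -0.37 (limma adjusted p = 0.602). In LW they were SREBF1 at -0.55 (SE 0.25, adjusted p = 0.259) and PPARG at 0.27 (SE 0.12, adjusted p = 0.271). SREBF1 stood at -0.51 in Creole (SE 0.27, adjusted p = 0.499) and at 0.18 in F1 (SE 0.25, adjusted p = 0.773), which turned to -0.05 without F1 TN replicate 2. The Creole value was -0.7 without Creole TN replicate 1 and -0.31 without Creole TN replicate 2. Among the other probes, NR1H3 A_72_P077786 stood at -0.25 (adjusted p = 0.176) and SREBF2 A_72_P255532 at 0.17 (adjusted p = 0.243) in F1, and SREBF1 A_72_P326973 at -0.21 (adjusted p = 0.189) and NR1H3 A_72_P228412 at -0.29 (adjusted p = 0.251) in LW. With 1 array left out PPARG in LW ran from 0.16 (without LW TN replicate 3) to 0.39. The test of whether the change differed between breeds called 0 of the 10 genes, with 0 at an unadjusted p under 0.05 on the brightest probes, and called 1 of the 44703 probes in all (0.00224%).

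Of the 10 genes, 1 differed between the breeds. Between LW and Creole, with temperature in the model, limma called 14.3% of all tested probes and 15.3% of the representative probes of named genes, and 1 of the 10 genes, MLXIPL. MLXIPL read 11.21, 11.76 and 11.16 in Creole TN and 11.35, 10.83, 11.58, 10.79 and 10.91 in Creole HS. In LW it read 11.05, 10.87, 10.68 and 10.87 at TN and 10.22, 10.78, 10.52, 10.90 and 10.56 under HS. The breeds overlapped, and 5 of the 9 LW arrays lay below all 8 Creole arrays. The difference LW minus Creole was -0.49 (SE 0.16, 95% interval -0.82 to -0.17, adjusted p = 0.0354), a fold of 0.711. F1 pigs, at 10.32 to 11.44 with a mean of 11.04, had a mean between the 11.20 of Creole and the 10.72 of LW. The call held in 13 of 13 other settings and in 20 of 26 fits with 1 array left out. It was lost, with adjusted p up to 0.0852, without Creole HS replicate 1 or 3, Creole TN replicate 2, LW HS replicate 1 or 3, or LW TN replicate 3.

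Single probes of CEBPA and RXRA also passed between the breeds. CEBPA A_72_P399728 read 8.43, 8.81 and 8.42 in Creole TN and 7.69 to 8.82 in Creole HS, against 7.93, 8.23, 7.89 and 8.13 in LW TN and 7.62 to 8.01 in LW HS. Its difference LW minus Creole was -0.40 (SE 0.13, limma adjusted p = 0.0433), and it was called in 14 of 26 fits with 1 array left out and in 9 of 12 other settings. The partly overlapping O15014 gave -0.28 (limma adjusted p = 0.153), A_72_P344038 gave -0.29 (limma adjusted p = 0.142), and the brightest CEBPA probe gave -0.06 (limma adjusted p = 0.794). RXRA O15026 read 7.24, 7.72 and 7.18 in Creole TN and 7.51, 7.25, 7.47, 7.22 and 7.20 in Creole HS, against 7.14, 6.99, 6.81 and 6.88 in LW TN and 6.85, 7.29, 6.94, 7.10 and 6.88 in LW HS. Its difference was -0.36 (SE 0.10, limma adjusted p = 0.0138), called in all 26 fits with 1 array left out and in 11 of 12 other settings, the exception being 75th percentile scaling (adjusted p = 0.0521). The brighter RXRA probe gave -0.13 (limma adjusted p = 0.297). These probes were thus lower in LW by amounts that the brightest probe of the same gene did not share at the threshold.

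In the opposite direction, CEBPB (0.35, adjusted p = 0.113), SREBF2 (0.28, adjusted p = 0.111) and NR1H3 (0.17, adjusted p = 0.126) were higher in LW on their brightest probes at an unadjusted p under 0.05 and missed the threshold in limma after adjustment. For CEBPB, probe A_72_P399493 gave -0.03, for SREBF2 A_72_P255532 gave 0.04, and for NR1H3 3 of the 4 other probes were below 0. PPARG stood at -0.0042 (95% interval -0.20 to 0.19). F1 pigs differed from the mean of the parental breeds for 0 of the 10 genes, with 0 at an unadjusted p under 0.05 in limma (3 of the 30 probes) and 0.00671% of all probes called.

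Genes acting around the 10 factors were counted from lists of textbook partners and targets. Among named genes, limma called 4.9% higher and 7.65% lower under HS. The counts below of partners and of promoting factors did not exceed these shares. Of 22 tested partners and regulators, 1 rose and 0 fell (median -0.02). The coactivator NCOA2 rose by 0.24 (SE 0.05, adjusted p = 0.00277, higher in 14 of 15 HS arrays), and NR1H2, the second LXR gene, was at 0.09 (adjusted p = 0.157). Of 14 other factors that promote fat cell formation, 0 rose and 1 fell, EBF2 by 0.21 (adjusted p = 0.00857), while KLF6 was at 0.17 (adjusted p = 0.384). Of 16 tested factors that restrain it, 3 rose and 0 fell (median 0.05). RUNX1T1 rose by 0.32 in 15 of 15 HS arrays (adjusted p = 0.00614), KLF3 by 0.25 on its brightest probe (adjusted p = 0.0399, a direction shared by 2 of its 4 other probes) and the Notch target HES1 by 0.21 (adjusted p = 0.0472), and CTNNB1, which encodes beta-catenin, was at 0.00. With 75th percentile scaling 1 of these 16 rose, and with 1 array left out 1 to 3.

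Part of the lipogenic targets of SREBF1 and MLXIPL fell under HS. Of 19 tested, 9 fell and 0 rose, with a median of -0.35. Taken by breed, 6 were called lower in LW (median -0.77), 0 in Creole (median -0.34) and 0 in F1 (median -0.17). Whether the change of the list differed between breeds was not tested. ME1, the malic enzyme that supplies NADPH, fell by 1.3 (SD 0.93 in HS, n = 15, adjusted p = 0.00141, lower in 13 of 15 HS arrays). The fatty acid elongase ELOVL6 fell by 0.86 (adjusted p = 0.00509). ACLY, which makes cytosolic acetyl-CoA, was not called, at -0.82 (adjusted p = 0.0718). With 1 array left out 7 to 11 of the 19 fell. Of 16 tested cholesterol synthesis targets of SREBF2, 4 fell and 0 rose (median -0.25), among them ACAT2 (-0.60, adjusted p = 0.00392) and IDI1 (-0.46, adjusted p = 0.0082). The brightest SREBF2 probe, at 0.17, was on the other side of 0 from this median.

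Few targets of PPARG and CEBPA were called. Of 22 tested, 2 rose and 1 fell (median -0.07), which is near the 12.6% called among all named genes (4.9% higher and 7.65% lower). CFD, the adipokine adipsin, rose by 0.48 in 15 of 15 HS arrays (adjusted p = 0.000368), ADIPOQ, which encodes adiponectin, rose by 0.16 (adjusted p = 0.0384), and the lipid droplet gene CIDEA fell by 0.43 in 15 of 15 (adjusted p = 0.000234). FABP4, the fatty acid carrier, was at 0.00 (adjusted p = 0.953). With 75th percentile scaling the list had 1 higher and 7 lower. Of 5 NR1H3 targets 1 fell, the phospholipid acyltransferase LPCAT3 by 0.47 (adjusted p = 0.00172), and APOE was at 0.02 (adjusted p = 0.892). Of 5 genes induced by glucocorticoids 1 fell, SGK1 by 0.73 (adjusted p = 0.00314), and PER1 was at -0.06 (adjusted p = 0.815).

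Some marker scores of other cells moved with temperature beside these lists. The mean of 5 red blood cell genes was lower under HS by 0.32 (TN -0.03 to 0.57, HS -0.49 to 0.37, permutation p = 0.00097, adjusted over 11 marker lists 0.00534). The mean of 6 Schwann cell genes was higher by 0.56 (TN -0.77 to 0.16, HS -0.27 to 0.88, permutation p = 9e-05, adjusted 0.00099). With the red blood cell score as a covariate limma called 528 of 44703 probes between the temperatures in place of 5447. That fit called 0 genes of the SREBF1 and MLXIPL list (median -0.14) and 0 of the SREBF2 list (median -0.14). It also called 0 of the factors that restrain fat cell formation, whose median was 0.05 with and without the covariate. The calls among partners, promoting factors, NR1H3 targets and glucocorticoid-induced genes were also lost (0 in each). Their medians were -0.04, -0.01, -0.01 and -0.45, against -0.02, -0.03, 0.02 and -0.18 without the covariate. Of the PPARG and CEBPA targets 1 was higher and 1 lower. With slide as a fixed block the counts of the SREBF1 and MLXIPL, SREBF2 and restraining lists were 9, 4 and 3. The fibroblast and preadipocyte score was higher under HS by 0.25 (TN -0.79 to 0.32, HS -0.26 to 0.57, permutation p = 0.0144, adjusted 0.0528), and 4 of its 8 genes rose. The skeletal muscle score was higher under HS by 0.54 (TN -2.46 to 1.32, HS -1.47 to 2.87, permutation p = 0.26, adjusted 0.409). The keratinocyte score was higher by 0.79 (TN -1.31 to 2.41, HS -1.55 to 3.28, permutation p = 0.16, adjusted 0.398). The macrophage, endothelial, T cell, B cell and neutrophil scores differed by -0.05 to 0.31. The part of the fibroblast, Schwann cell, skeletal muscle and keratinocyte scores in these counts was not tested.

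**Figure D3:**
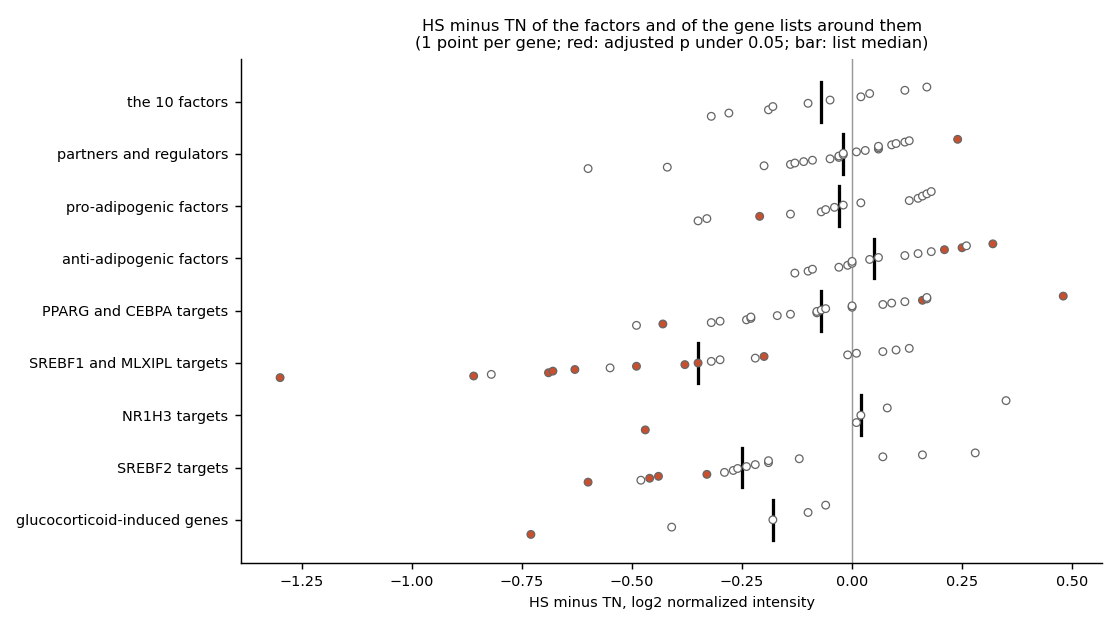
Differences HS minus TN (horizontal axis, log2 normalized intensity) for the 10 factors and for the lists of partners and targets, with 1 point per gene, red for an adjusted p under 0.05 and a bar at the list median. The 10 factors hold no red point, and the 9 red points of the SREBF1 and MLXIPL targets are all below 0, with ME1 at -1.3.

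Between the breeds, genes of 3 target lists were lower in LW, and some of the factors that restrain or promote fat cell formation were higher. Of the 19 SREBF1 and MLXIPL targets 8 were lower in LW and 0 higher (median -0.45), against 8.62% lower and 6.68% higher among named genes. They included ELOVL6 at -0.92 (adjusted p = 0.0112) and ME1 at -0.96 (adjusted p = 0.0337). Of the 16 SREBF2 targets 5 were lower and 0 higher, and of the 22 PPARG and CEBPA targets 6 were lower and 0 higher. Of the 16 restraining factors 4 were higher and 0 lower, among them KLF3 at 0.56 (adjusted p = 0.000775) and HES1 at 0.46 (adjusted p = 0.00132), and of the 14 promoting factors 2 were higher and 0 lower. Of the 22 partners and regulators 2 were higher and 2 lower. Of the 5 NR1H3 targets (median 0.08) and the 5 glucocorticoid-induced genes (median 0.06), 0 were called in either direction. The adipocyte score differed between LW and Creole by -0.27 (Creole 0.02 to 0.50, LW -0.29 to 0.05). LEP, which encodes leptin and was named after its value was seen, stood at -1.23, and the other 5 genes of the score lay between -0.16 and 0.00 with a mean of -0.08. All 6 are also in the list of PPARG and CEBPA targets. The fibroblast and preadipocyte score differed by 0.32 (Creole -0.79 to 0.18, LW -0.15 to 0.57). The skeletal muscle score differed by -0.92 (Creole -1.47 to 2.87, LW -2.46 to 1.91) and the keratinocyte score by 0.68. The neutrophil score differed by 0.51, and the endothelial and Schwann cell scores by 0.2 each. The macrophage, T cell, B cell and red blood cell scores differed by -0.15 to 0.08. The part of these scores in the counts was not tested. With 1 array left out the count of lower SREBF1 and MLXIPL targets ran from 5 (without Creole HS replicate 1, 2 or 3 or LW HS replicate 3) to 11. That of lower SREBF2 targets ran from 2 (without Creole HS replicate 1, 2 or 4 or LW HS replicate 3) to 5, and it was 2 with slide as a fixed block, where 2 restraining and 1 promoting factors were higher. With the red blood cell score as a covariate 13 of the 19 SREBF1 and MLXIPL targets were lower.

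Levels of the 10 factors were then compared between pigs of the same group, by subtracting the mean of its group from each array, which asks whether factors that act together also vary together. Of 45 pairs, 12 passed a permutation test with values shuffled among the 26 arrays (100000 resamples, Benjamini-Hochberg over the pairs), 6 of them positive and 6 negative. Shuffling within the 6 groups, which keeps the removed group means out of the null and was added after the data were seen, left 9 of these 12, 6 positive and 3 negative. The adjusted p-values below are from the within-group permutation. Points share slides and the normalization. How many pairs of other genes, or of other genes with these lists, would pass the same tests was not examined. The counts therefore describe these pairs and cannot be called particular to the factors.

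The levels of SREBF1, MLXIPL and SREBF2 varied together on their brightest probes. SREBF1 and MLXIPL had r = 0.66 (rho = 0.66, permutation p = 0.00096, adjusted 0.0119), which was 0.60 without the 2 arrays farthest from the SREBF1 median. SREBF1 and SREBF2 had r = 0.64 (rho = 0.64, permutation p = 0.00056, adjusted 0.0119) and SREBF2 and MLXIPL had r = 0.60 (rho = 0.50, permutation p = 0.00586, adjusted 0.0377). With the other SREBF2 probe, A_72_P255532, SREBF1 stood at r = 0.42 and MLXIPL at 0.25. CEBPA followed SREBF1 at r = 0.59 (rho = 0.50, permutation p = 0.00504, adjusted 0.0377). Over all probes, SREBF1 with MLXIPL ran from 0.41 to 0.66 (3 combinations) and CEBPA with SREBF1 from 0.16 to 0.59 (12 combinations), so the values on the brightest probes were the highest. Without removing group means, SREBF1 with SREBF2 fell to 0.35 and SREBF2 with MLXIPL to 0.14, and neither passed (adjusted permutation p = 0.184 and 0.545). After slide means were also removed the 4 values on the brightest probes were 0.68, 0.65, 0.57 and 0.68. Within slide 3 (n = 6), SREBF1 followed MLXIPL at 0.98 and SREBF2 at 0.04. Within slide 4 (n = 7) the values were 0.50 and 0.76.

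The early factors ran against SREBF1. CEBPD and SREBF1 had r = -0.70 (rho = -0.62, permutation p = 0.00129, adjusted 0.0119), and CEBPB and SREBF1 had r = -0.66 (rho = -0.67, permutation p = 0.00132, adjusted 0.0119). Without the 2 arrays farthest from the median these were -0.54 and -0.59. CEBPB and SREBF2 had r = -0.55 (rho = -0.51, permutation p = 0.00991, adjusted 0.0495). All 6 combinations of a CEBPD with an SREBF1 probe were negative, from -0.76 to -0.39, and 14 of 15 combinations of a CEBPB with an SREBF1 probe were negative. For CEBPB with SREBF2 the 10 combinations ran from -0.60 to 0.31. Without removing group means, CEBPB stood at -0.48 with SREBF1 and at -0.31 with SREBF2, and neither passed (adjusted permutation p = 0.0583 and 0.231). With 75th percentile scaling CEBPB with SREBF2 had an adjusted within-group permutation p of 0.0818.

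Other pairs joined factors of different roles. CEBPD followed NR1H3 at r = 0.58 (rho = 0.62, permutation p = 0.00124, adjusted 0.0119), within slide 3 at 0.78 and within slide 4 at 0.81. This was the highest of 10 probe combinations, which ran from -0.11 to 0.58 with 8 positive, the negative ones being those with NR1H3 A_72_P228412. With 75th percentile scaling it was 0.50 and did not pass within groups (adjusted permutation p = 0.108). PPARG followed KLF15 at r = 0.58 (rho = 0.61, permutation p = 0.00967, adjusted 0.0495), all 8 probe combinations lay between 0.48 and 0.61, but the value was -0.36 within slide 3 and 0.22 within slide 4, and 0.42 without removing group means (adjusted permutation p = 0.101). PPARG and CEBPA, which sustain each other in fat cells, had r = -0.06, and PPARG and its partner RXRA had r = -0.03. The pairs SREBF2 with NR1H3 (r = -0.58), CEBPD with MLXIPL (r = -0.53) and CEBPB with MLXIPL (r = -0.49) passed only when values were shuffled among all arrays. For SREBF2 with NR1H3 the 10 probe combinations ran from -0.64 to 0.31, and 6 were positive.

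**Figure D4:**
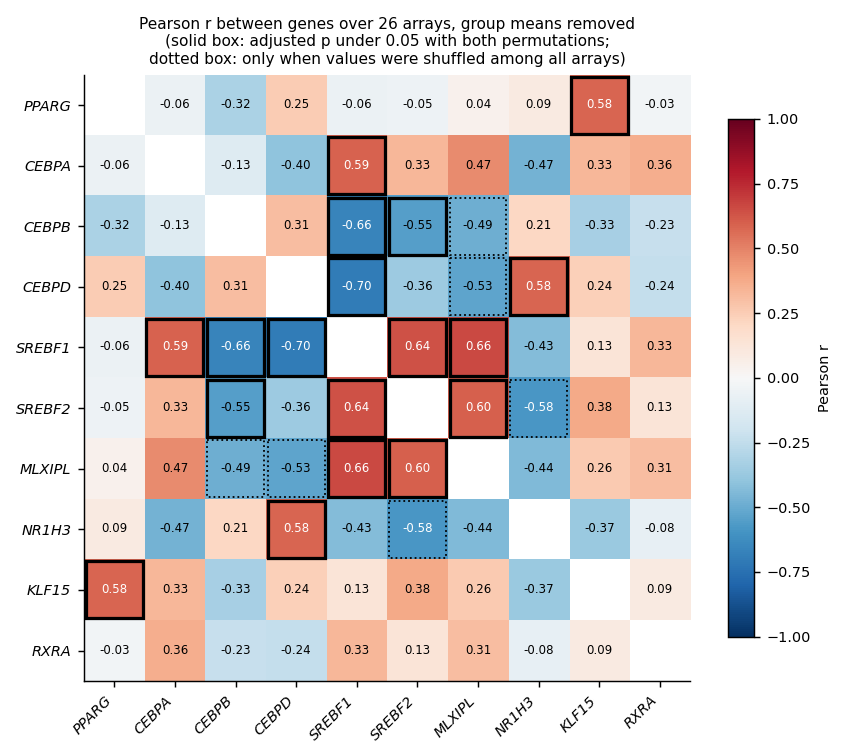
Pearson r between the 10 factors over 26 arrays with group means removed (rows and columns are genes, red positive, blue negative). Solid boxes mark the 9 pairs that passed both permutation tests and dotted boxes the 3 that passed only with values shuffled among all arrays, and SREBF1 has the most boxes, with r from -0.70 to 0.66.

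For 8 of the 10 factors, all but CEBPB and RXRA, the level was also set against the mean level of a gene list, its targets for 6 of them and glucocorticoid-induced genes for CEBPD and KLF15. MLXIPL followed the SREBF1 and MLXIPL targets at r = 0.71 (rho = 0.71, permutation p = 0.00053, adjusted 0.00212), and SREBF1 followed them at r = 0.64 (rho = 0.65, permutation p = 0.00015, adjusted 0.0012). Leaving out the 2 most distant arrays gave 0.62 and 0.65, slide 3 gave 0.93 and 0.96, and slide 4 gave 0.92 and 0.44. All 3 SREBF1 probes were positive, from 0.39 to 0.64. SREBF2 followed its cholesterol targets at r = 0.68 (rho = 0.51, permutation p = 0.00379, adjusted 0.0101) on its brightest probe, 0.49 without the 2 most distant arrays, and at 0.21 on its other probe. Without removing group means, the SREBF2 value on the brightest probe fell to 0.15, while MLXIPL stood at 0.79 and SREBF1 at 0.70 with their list. Whether the temperature difference of the factors differs from that of their targets was not tested.

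PPARG ran against the targets that it shares with CEBPA, at r = -0.55 (rho = -0.53, permutation p = 0.0118, adjusted 0.0189), with -0.41 without the 2 most distant arrays and -0.55 to -0.29 over its 4 probes. CEBPA stood at r = 0.20 on its brightest probe (permutation p = 0.353, adjusted 0.353) and at 0.30 to 0.61 on the other 3. CEBPD followed the glucocorticoid-induced genes at r = 0.66 (rho = 0.48, permutation p = 0.00729, adjusted 0.0146), and at 0.41 on its other tested probe. KLF15 stood at 0.24 with those genes (adjusted permutation p = 0.25), and NR1H3 at 0.41 with its targets (adjusted permutation p = 0.133). The other NR1H3 probes ran from 0.38 to 0.50, except A_72_P228412 at -0.44. In 50 further relations of the 10 factors with the share of spots well above background and with the red blood cell, Schwann cell, fibroblast and skeletal muscle scores, 0 passed a within-group permutation test after adjustment (lowest adjusted p 0.533) and 3 had an unadjusted p under 0.05.

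**Figure D5:**
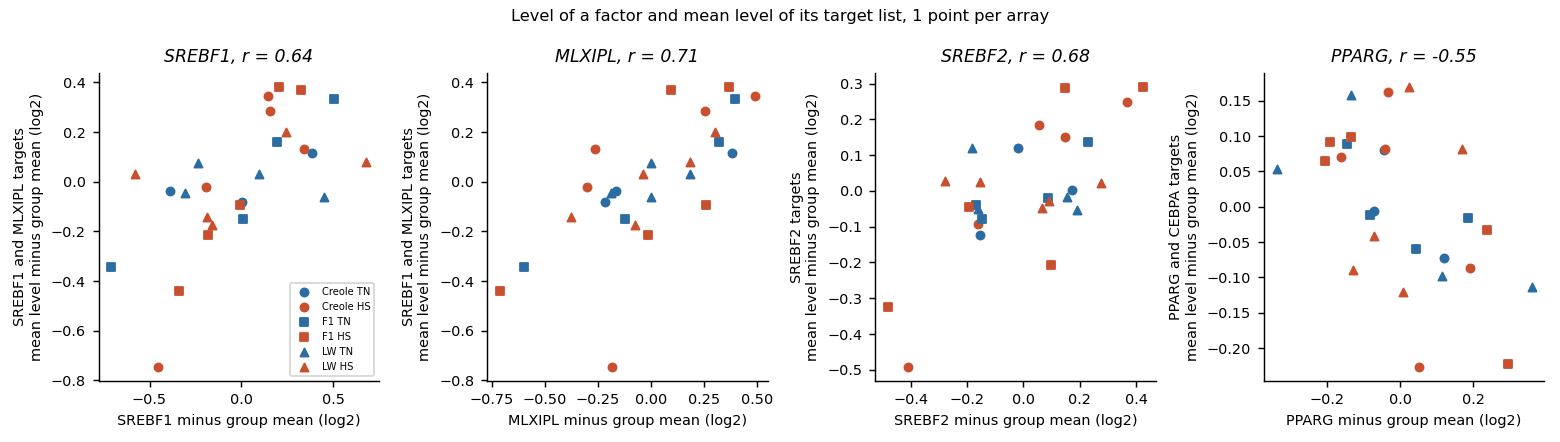
Level of SREBF1, MLXIPL, SREBF2 and PPARG (horizontal axes, log2 minus group mean) against the mean level of their target lists (vertical axes, log2 minus group mean), with 1 point per array, blue for TN, red for HS, and circles, squares and triangles for Creole, F1 and LW. The SREBF1, MLXIPL and SREBF2 panels rise, with r from 0.64 to 0.71, and the PPARG panel falls, with r = -0.55. In the first 3 panels 1 Creole HS array is the lowest point.

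For each factor the named gene with the most similar pattern was also found, among 10481 genes over the same 26 arrays with group means removed, as a description. They were ARID5B for PPARG (r = 0.69), SNX11 for CEBPA (0.88), ID3 for CEBPB (0.87), TMX4 for CEBPD (0.81) and CDK16 for SREBF1 (0.84). For the others they were RAB42 for SREBF2 (0.90), SLC26A6 for MLXIPL (0.82), PI4KB for NR1H3 (0.89), IRF2BP2 for KLF15 (0.76) and TMEM117 for RXRA (0.73). None of these 10 genes is another member of the set. The highest of many values is high by selection, and no p-value is given.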

How the data were processed

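The authors hybridised Cy3-labelled RNA to one-colour porcine microarrays and deposited the output of Agilent Feature Extraction 10.10.1.1 for each array, with raw spot intensity values and yes or no flags (other unit), and a table of log2 values that the authors had quantile-normalized with preprocessCore. That table held 44104 probes and served as an alternative. From the deposited intensity values, the median intensity of each spot was taken without background correction, arrays were quantile-normalized and log2 was taken, as in the study's methods, with non-uniform spots dropped here. Of 60305 probes, 44703 had a spot flagged well above its background on 8 arrays or more and were tested with limma 3.58.1 in R 4.3.3 (lmFit, eBayes with an intensity trend), with Benjamini-Hochberg adjustment over all of them at 0.05. The number of arrays limits the precision. The models held breed and temperature, or the 6 group means for changes within breeds. The pen, slaughter day, father and mother terms of the study's own model were not used here, since the labels do not give them. Related pigs are treated as independent. Probes were named by the symbols, accessions, gene IDs and descriptions in the files, updated through a RefSeq table of assembly Sscrofa11.1, of which no coordinates are used. This named 10482 genes with a tested probe. A gene was counted as called where its brightest tested probe passed. All 10 genes were named with all their probes, and from each list up to 3 called genes with the largest change and the brightest uncalled gene, except for some genes that are not reported here. Permutation tests were two-sided, with 100000 resamples. The fit was tested on simulated data. The members and lists were chosen with earlier results of these data known. Alternatives covered the normalization, background correction, probe filter, slide, array weights, variance prior, red blood cell covariate, probes per gene, samples in the fit and each array left out.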

Additional observations from a re-analysis of the deposited data

Results flagged for a closer look

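Of 50 sets of 4 or 5 arrays (a gene in a group), 2 held 1 array farther from the others than a Dixon test allows, where chance gives about 1 in 20. CEBPD read 13.39 in F1 TN replicate 2, against 11.82 to 12.04 in the other 3 arrays of that group. RXRA read 7.07 in LW TN replicate 3, against 7.37 to 7.40 in the other 3. Creole TN, with 3 arrays, was not tested.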

How the results depend on the processing

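No paired analysis was possible because replicate numbers were given in the order of the samples and pair no animals. The count of factors called between TN and HS was 0 in 14 other settings and with each of the 26 arrays left out, and the counts within breeds, of the interaction and against the mid-parent mean were 0 in every setting run. Scaling to the 75th percentile turned the HS minus TN difference of NR1H3 to -0.062, PPARG to -0.0064, KLF15 to -0.033 and RXRA to 0.012, none of them called. Processed signals gave -0.053 for NR1H3 and -0.024 for KLF15, the mean of all probes of a gene gave -0.044 for NR1H3 and 0.0092 for RXRA, and the red blood cell covariate gave 0.035 for MLXIPL. With 1 array left out KLF15 ran from -0.042 to 0.14 and CEBPA from -0.15 to -0.043. Over the other settings CEBPB ran from -0.39 to -0.18 (lowest limma adjusted p = 0.0942) and CEBPD from -0.52 to -0.21. SREBF1 ran there from -0.32 to -0.14 and CEBPA from -0.23 to -0.042, none of them called. Between LW and Creole, PPARG turned to 0.014 with array weights, 0.0019 with the red blood cell covariate and 0.0029 with F1 left out, and ran from -0.039 to 0.049 with 1 array left out, while CEBPA ran from -0.097 to 0.01. The count of factors called there was 2 with the mean of all probes, where RXRA joined MLXIPL (-0.25, limma adjusted p = 0.033), and 0 to 2 with 1 array left out, with NR1H3 joining (0.21, limma adjusted p = 0.0399) without Creole HS replicate 5. The count of covarying pairs was 12, and 6 of 45 without removing group means, of which 4 were shared, 10 with 75th percentile scaling and 9 with shuffling within groups. The cause was not tested for any of these. Counts over the gene lists and for single probes were rerun under the same settings after the data were seen. Precision is limited by 3 to 5 pigs per group.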
